A study of Mus musculus with 8 samples.

Results

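A set of 10 genes of MHC class I antigen presentation were followed in mouse iPSCs (induced pluripotent stem cells), over 8 RNA libraries. They were chosen by name: the heavy chain genes H2-K1 and H2-D1, their partner B2m, the peptide transport and loading genes Tap1, Tap2 and Tapbp, the immunoproteasome subunit genes Psmb8, Psmb9 and Psmb10, and the regulator Nlrc5. All 10 were found among the 23284 gene symbols of the table. The cells were reprogrammed from embryonic fibroblasts and grown over feeder cells, and polyA RNA was sequenced. The question of the series, per its design text, was how silencing of the DNA methyltransferases Dnmt3a and Dnmt3b compares with a transient pulse of miR-203, a microRNA known from differentiating epithelia.

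The wild-type iPSCs, whose genotype the labels write as ColA1_miR203 (+/+); Rosa26rtTA (+/+), gave 4 libraries: siControl received a non-targeting siRNA, siDnmt3a and siDnmt3b received the siRNA to that gene, and 1 library received both (the double siRNA). All were collected 1 week after transfection. The knock-in iPSCs, ColA1_miR203 (KI/KI); Rosa26rtTA (KI/KI), carry miR-203 under the control of doxycycline (dox) and gave the other 4 libraries. Clones 1 and 2 received dox for 5 days and were collected 2 weeks after its withdrawal, and libraries with the same clone numbers received vehicle (n = 2 per group). These groups are models with few clones of an inducible allele, and the feeders were not removed by any step that the labels describe. Nothing in the labels says that libraries came from separate cultures beyond the clone numbers, so p-values measure only the spread between these libraries.

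MHC class I molecules show fragments of the cell's own proteins to T cells. The proteasome cuts proteins into peptides, the TAP transporter carries them into the endoplasmic reticulum, and tapasin helps load them onto a heavy chain paired with beta-2 microglobulin. Pluripotent cells are known for low class I levels, and interferon raises the genes of the pathway in most cells, in part through the transactivator NLRC5.

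The promoters of the genes that differed most are shown first. The 3 genes that were higher after dox share a spaced pair of motifs, which was read off these same sequences. The sequences are the bases before the RefSeq start site on GRCm38.p6, 5′ to 3′ on the gene's strand, and stop before the first exon. Capitals mark matches to the motifs GGGNNTTCC (NF-kB), GAAANNGAA (interferon response) or GAANNGAA (the same with closer spacing), TGACG (X2 box core) and CCAAT (Y box core), on either strand. H2-K1 is at chr17:34000348-34000597 on the minus strand, B2m at chr2:122147437-122147685 on the plus strand and Psmb10 at chr8:105938445-105938642 on the minus strand. The upstream window of H2-D1 overlaps an annotated exon, so only pieces of 30 bases are given, from chr17:35262923-35262952 and chr17:35262993-35263022 on the plus strand.
H2-K1: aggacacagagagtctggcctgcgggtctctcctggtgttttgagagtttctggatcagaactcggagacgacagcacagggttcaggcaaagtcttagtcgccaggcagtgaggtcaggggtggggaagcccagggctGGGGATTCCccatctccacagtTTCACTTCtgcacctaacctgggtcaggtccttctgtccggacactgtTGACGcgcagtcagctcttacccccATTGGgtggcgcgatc
B2m: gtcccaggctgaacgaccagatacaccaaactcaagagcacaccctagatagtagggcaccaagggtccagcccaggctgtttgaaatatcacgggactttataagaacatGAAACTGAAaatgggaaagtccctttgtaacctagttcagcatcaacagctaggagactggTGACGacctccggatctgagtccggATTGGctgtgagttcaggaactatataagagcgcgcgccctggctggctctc
Psmb10: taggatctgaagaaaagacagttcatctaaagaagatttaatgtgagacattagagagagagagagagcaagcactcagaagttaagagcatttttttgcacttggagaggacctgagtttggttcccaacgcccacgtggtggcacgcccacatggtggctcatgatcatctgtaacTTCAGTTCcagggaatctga
H2-D1, NF-kB to interferon motif: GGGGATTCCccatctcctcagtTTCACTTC
H2-D1, X2 to Y box: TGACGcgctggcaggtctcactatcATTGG

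In H2-K1, H2-D1 and B2m, TGACG was followed after exactly 20 bases by ATTGG, the reverse complement of CCAAT. Of 32851 RefSeq windows of 300 bases (250 before the start site and 50 after it), 31 windows of 27 symbols held this arrangement on either strand, 0.0944% of the total, and 3 of those symbols begin with H2-, the other being H2-M3, a heavy chain that presents bacterial peptides. H2-M3 did not pass in the dox comparison given below (means of 5.44 FPKM in vehicle and 5.96 in dox, limma adjusted p = 0.489). The spacing was chosen after the sequences were seen, so its presence in H2-K1, H2-D1 and B2m is no test of a link with dox. H2-K1 and H2-D1 also shared GGGGATTCC and TTCACTTC, and B2m held GAAACTGAA. The Psmb10 window held TTCAGTTC before the start site and neither TGACG nor CCAAT. Single motifs were common: GGGNNTTCC was in 5.82% of windows, GAAANNGAA in 8.56%, GAANNGAA in 20.1%, TGACG in 20.8% and CCAAT in 37.4%. AGNAACNG, an X1 box core, was in 17.4% of windows and, among the class I genes, in that of Psmb8. Of the 10 genes, 8 had a window in the table, and Tap2 and Nlrc5 had none. Tap1 and Psmb9 lie head to head with start sites 226 bases apart, their windows share 275 bases, and TGACG and CCAAT occur in both windows. These matches are letters in a window and were not tested as binding sites.

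Values are FPKM (fragments scaled to transcript length and library size, so levels can be compared between genes). The sum over all genes was 486917 to 586657 FPKM per library, and 11620 to 12076 genes reached 1 FPKM. How many fragments each library held is unknown here, so values carry no counting interval. Pluripotency markers passed the filter in 10 of 10 cases, and their summed level was 2902 to 3697 FPKM in the wild-type libraries, 3461 and 3827 in vehicle and 4362 and 4474 in dox. They did not rise as a set: 3 rose, 1 fell and 6 did not pass (limma, adjusted p under 0.05), beside 17.1% and 14.8% of all tested genes. Dppa5a, the one with the largest difference, went from a mean of 1086 FPKM in vehicle to 1924 in dox, and Utf1 fell from 128 to 91.6. Markers of other cells were present too. The summed level of 20 fibroblast markers was 236 to 357 FPKM in wild type, 713 and 862 in vehicle and 2436 and 2559 in dox, and all 20 were higher in dox by limma at an adjusted p under 0.05. Of 12 macrophage markers, 7 rose in dox (4 without vehicle clone 1), with sums of 190 to 252 FPKM in wild type, 422 and 441 in vehicle and 546 and 665 in dox. No fibroblast or macrophage marker was at 0 in all libraries. In bulk RNA, fewer cells of a type and less RNA per cell cannot be told apart, and the part of these cells in the class I levels was not tested.

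The dox comparison split the class I genes. H2-K1, H2-D1 and B2m, which form the surface molecule, rose by 0.91 to 1.28 on the log2(FPKM + 1) scale, while 6 of the genes that make and load peptides or regulate the pathway fell and Psmb8 did not pass the test (limma, adjusted p under 0.05, n = 2 per group). Among all 11927 genes tested, 17.1% rose and 14.8% fell. The median difference of the 10 genes was -0.41 and that of all tested genes -0.01. The count of 6 lower genes was 5 with libraries scaled to an equal sum or by median ratio, or without the trend in the fit. It was also 5 at a mean of 5 FPKM or more, where 9 of the 10 were tested. The 3 higher genes stayed past the threshold in all 12 alternative settings. The count of 6 lower genes was 2 without vehicle clone 2 and 2 with no filter on low values, and in the first case Psmb10 and Nlrc5 were the ones that remained.

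**Figure D1:**
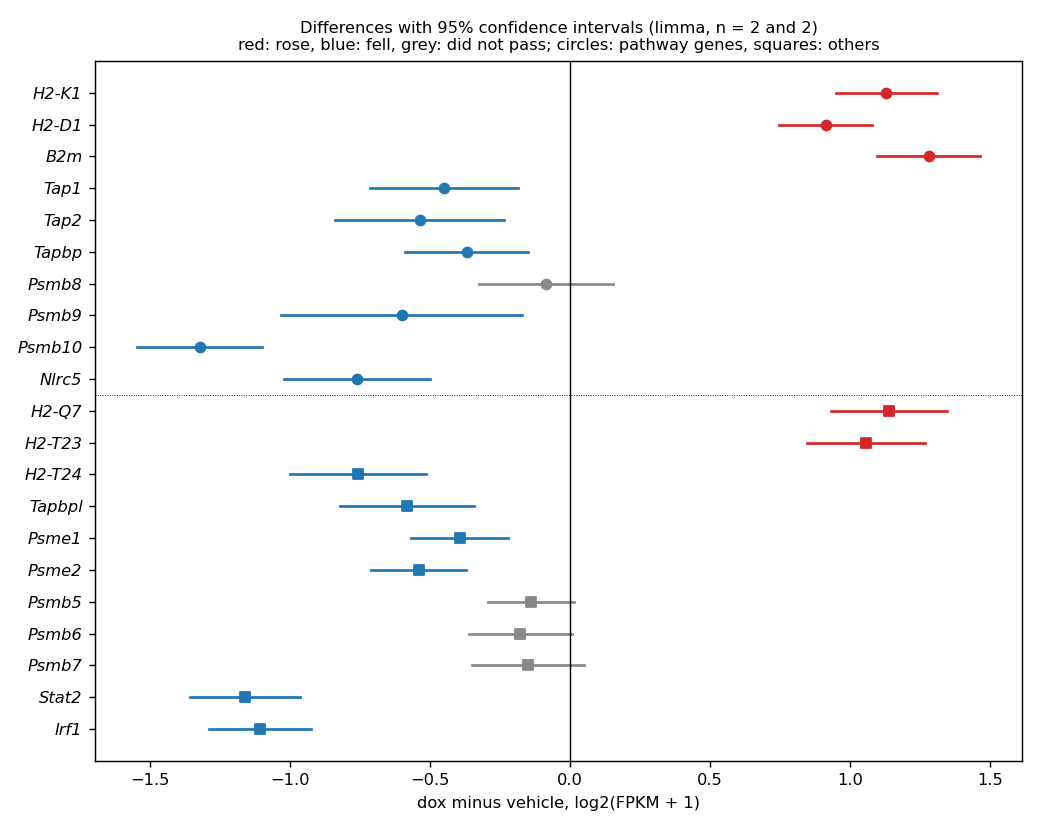
Difference between dox and vehicle on the log2(FPKM + 1) scale for the 10 class I genes (circles) and 11 other genes named in the text (squares), with 95% confidence intervals from limma (n = 2 per group; red rose, blue fell, grey did not pass). Of the 10, H2-K1, H2-D1 and B2m lie above 0 and the others below, the interval of Psmb8 spanning 0.

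B2m, the light chain of every class I molecule, was the most abundant of the 10 genes in every library. Its level was 445 and 500 FPKM in the vehicle libraries of clones 1 and 2, and 1141 and 1153 FPKM in the dox libraries. Both dox libraries were above both vehicle libraries, and the wild-type libraries were lowest, at 148 FPKM in siControl, 111 with siDnmt3a, 118 with siDnmt3b and 99.7 with the double siRNA. B2m rose by 1.28 (SE 0.0769, 95% confidence interval 1.10 to 1.46, limma adjusted p = 2.48e-04), a ratio of mean FPKM of 2.43.

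H2-K1 encodes the classical heavy chain K. It measured 184 and 202 FPKM in vehicle and 433 and 414 FPKM in dox. The groups did not overlap, and the 4 wild-type libraries, at 70.3, 66.3, 61.6 and 68.1 FPKM in the order siControl, siDnmt3a, siDnmt3b and double siRNA, were below both. The rise was 1.13 (SE 0.0750, limma adjusted p = 3.50e-04). H2-D1, the other classical heavy chain gene, measured 173 and 185 FPKM in vehicle, 334 and 341 in dox, and 60.2, 52.9, 49.2 and 57.9 in the same order of wild-type libraries. The order of the groups was that of H2-K1, and the rise was 0.91 (SE 0.0693, limma adjusted p = 5.26e-04). Of the 50-base stretches of the H2-K1 transcript, 8.79% also occurred in another gene, and for H2-D1 14.3% did. Of 24 genes that shared stretches with H2-K1, the top ones were H2-D1, H2-Q1 and H2-T23. Of 103 that shared stretches with H2-D1, they were H2-Q1, H2-Q7 and H2-Q6. The split of fragments between these genes is thus uncertain. Heavy chain genes vary between strains, and the labels give neither strain nor H-2 haplotype, so fragments of alleles unlike the reference may be undercounted, which could touch H2-K1, H2-D1 and ratios with them, between the lines above all. No stretch of B2m was shared. Patl2 overlaps B2m on the other strand, and it is unknown here whether fragments were counted by strand; Patl2 was listed at 0.897 to 3.92 FPKM.

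**Figure D2:**
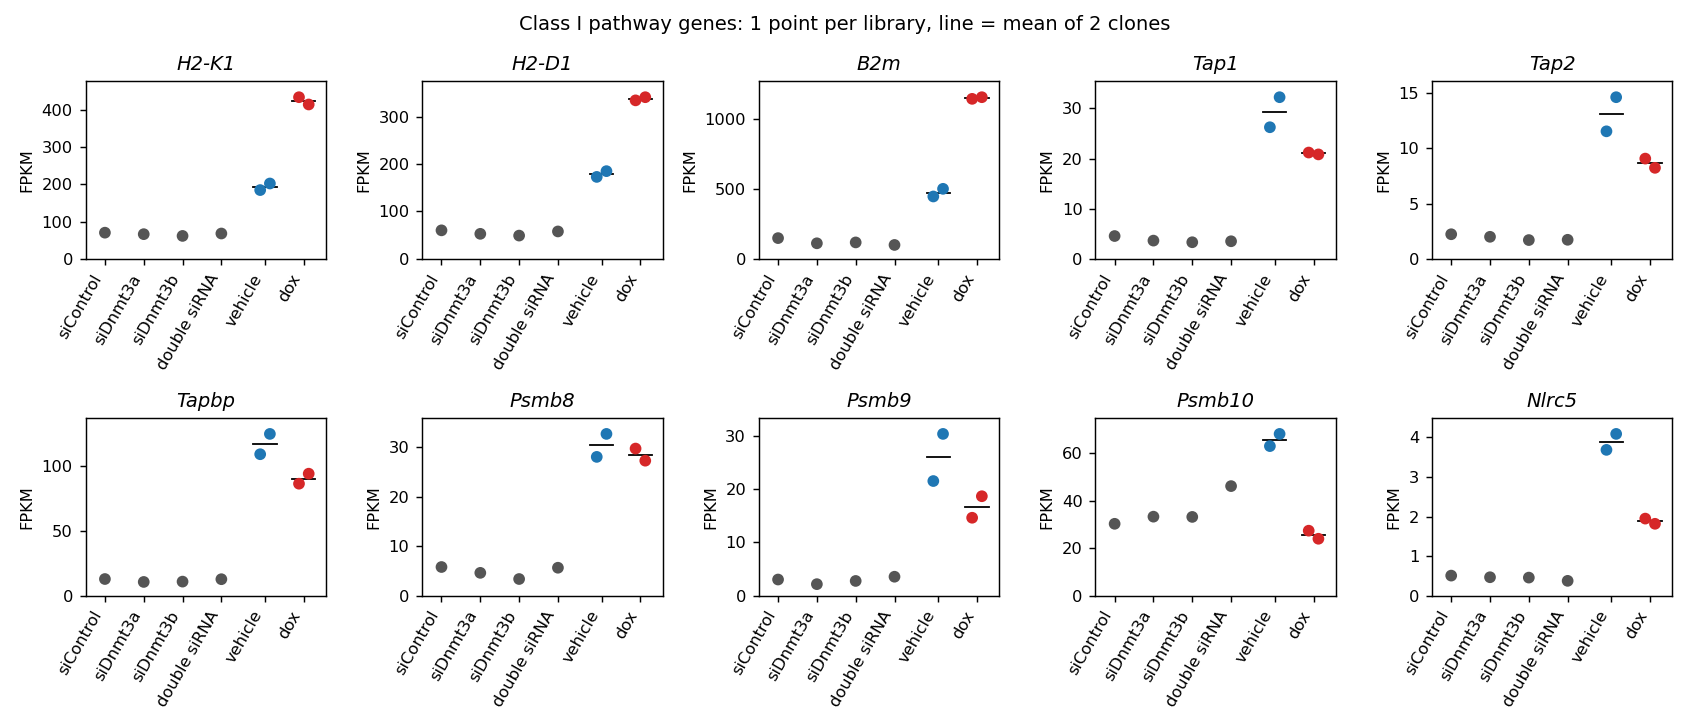
FPKM of each of the 10 class I genes in the 8 libraries, on a linear axis from 0 that differs between panels: wild type with the siRNA treatments (grey), vehicle (blue) and dox (red), with clone 1 left and clone 2 right and a line at the mean of the 2 clones. The 4 wild-type libraries lie below vehicle for every gene, and dox lies above vehicle for H2-K1, H2-D1 and B2m.

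The level of B2m over the sum of H2-K1 and H2-D1 was 1.25 and 1.29 in vehicle and 1.49 and 1.53 in dox, against 0.791 to 1.14 in wild type. Both dox libraries were thus above both vehicle libraries, with no test made of this ratio. H2-K1 and H2-D1 supplied 67.7% and 68.7% of the summed FPKM of class I heavy chains of the H2 family in vehicle, 76.97% and 78.4% in dox, and 69.6% to 71.5% in wild type.

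The transporter and the loading factor went the other way. Tap1, which with Tap2 forms the peptide transporter, measured 26.2 and 32.2 FPKM in vehicle and 21.2 and 20.8 in dox. The dox libraries were both below the vehicle libraries and both above wild type, at 4.56, 3.65, 3.33 and 3.52 FPKM. Tap1 fell by 0.45 (SE 0.109, limma adjusted p = 0.0250). Tap2 measured 11.5 and 14.6 FPKM in vehicle, 9.05 and 8.22 in dox, and 1.70 to 2.23 in wild type. It fell by 0.54 (SE 0.126, limma adjusted p = 0.0229), with no overlap between groups. Tapbp, which encodes tapasin, the bridge between the transporter and the heavy chain, measured 109 and 125 FPKM in vehicle, 86.5 and 94.3 in dox, and 10.6 to 12.8 in wild type. Dox was again between vehicle and wild type, and Tapbp fell by 0.37 (SE 0.0915, limma adjusted p = 0.0267). Zbtb22 overlaps Tapbp by 3422 bases on the same strand and was listed at 9.80 to 16.0 FPKM. The split of fragments between Tapbp and Zbtb22 is thus uncertain, above all at the low Tapbp level of wild type. Without vehicle clone 2, the library with the higher values, none of the 3 passed: the limma adjusted p was 0.103 for Tap1, 0.0809 for Tap2 and 0.120 for Tapbp. Without dox clone 1, Tapbp had an adjusted p of 0.0530 by limma.

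Set against Tap1, the heavy chain was highest in dox. The ratio of H2-K1 to Tap1 in FPKM was 7.03 and 6.27 in vehicle, 20.4 and 19.9 in dox, and 15.4 to 19.3 in wild type. For B2m over Tap1 the values were 17.0 and 15.5 in vehicle, 53.8 and 55.3 in dox, and 28.3 to 35.4 in wild type. Vehicle was thus the lowest group in both ratios and dox the highest.

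The subunits below replace the constitutive catalytic subunits of the proteasome when it becomes an immunoproteasome: PSMB8 takes the place of PSMB5, PSMB9 that of PSMB6 and PSMB10 that of PSMB7. Psmb10 had the largest fall of the class I genes. It measured 62.9 and 68.0 FPKM in vehicle and 27.3 and 23.9 in dox, and 30.2, 33.2, 33.1 and 46.1 in wild type in the order siControl, siDnmt3a, siDnmt3b and double siRNA. Both dox libraries were below all 6 others, an order whose share over all genes was not counted. The fall was 1.32 (SE 0.0929, 95% confidence interval -1.54 to -1.10, limma adjusted p = 4.01e-04), a ratio of mean FPKM of 0.391.

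Psmb9 measured 21.5 and 30.4 FPKM in vehicle, 14.6 and 18.7 in dox, and 2.16 to 3.56 in wild type. The 2 groups of the knock-in line did not overlap, but the vehicle clones differed widely, and Psmb9 fell by 0.60 with a wide error (SE 0.179, limma adjusted p = 0.0451). The limma adjusted p was 0.142 without vehicle clone 2 and 0.0665 without dox clone 1, and 0.0522 when libraries were scaled to an equal sum. Psmb8 measured 28.1 and 32.7 FPKM in vehicle, 29.7 and 27.3 in dox and 3.36 to 5.79 in wild type. Vehicle and dox overlapped, and the difference was -0.09 (95% confidence interval -0.33 to 0.16, limma adjusted p = 0.536). That interval does not show that Psmb8 was the same in both groups. Psmb9 and Tap1 overlap by 212 bases on opposite strands, so their fragments there could be confused if strand was not used. Annotated noncoding genes on the other strand also overlap Tap2, Tapbp, Psmb8, Nlrc5 and Psmb10, the last by 2710 bases (Gm16156).

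The share of each inducible subunit in the sum with its constitutive partner showed the same contrast. For Psmb10 with Psmb7 it was 20.0% and 23.3% in vehicle and 11.03% and 10.3% in dox, within or near the 8.58% to 10.9% of wild type. For Psmb9 with Psmb6 it was 8.13% and 12.2% in vehicle, 6.60% and 8.49% in dox and 0.663% to 1.02% in wild type. The groups overlapped for Psmb9, and also for Psmb8 with Psmb5, at 10.9% and 12.3% in vehicle, 12.5% and 11.5% in dox and 1.12% to 2.02% in wild type. Psmb5, Psmb6 and Psmb7 differed between dox and vehicle by -0.14, -0.18 and -0.15, with limma adjusted p = 0.139, 0.119 and 0.202. With the clone number as a block these became 0.0382, 0.0169 and 0.0316.

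**Figure D3:**
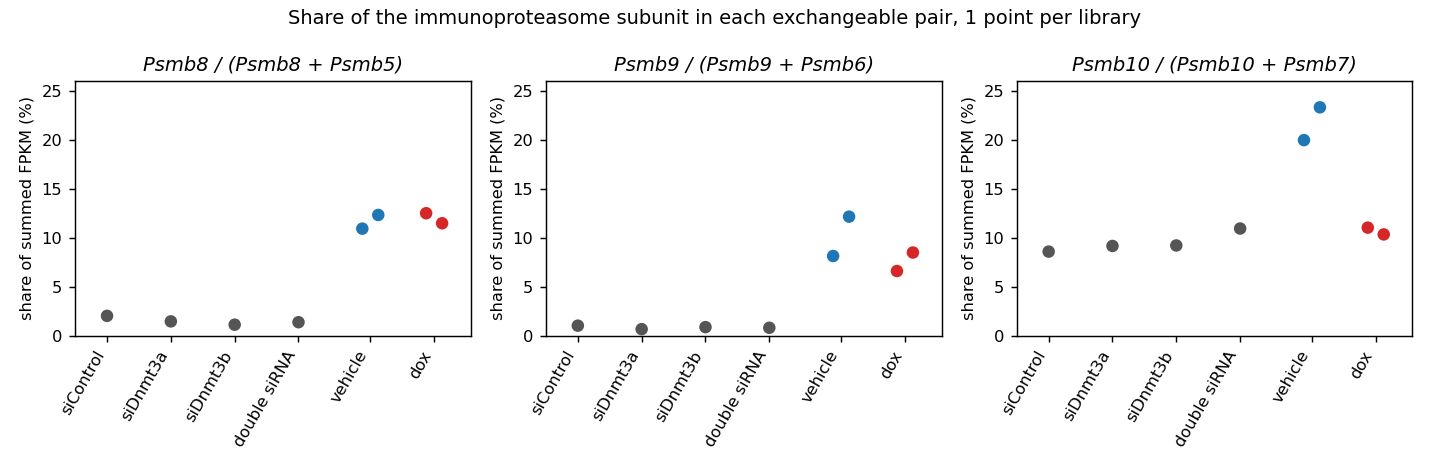
Share in percent of Psmb8, Psmb9 and Psmb10 in the sum of FPKM with Psmb5, Psmb6 and Psmb7, per library. For Psmb10 both dox libraries lie near wild type, at 11.03% and 10.3%, while for Psmb8 and Psmb9 they lie with vehicle.

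Nlrc5 encodes the transactivator of class I promoters. It measured 3.69 and 4.09 FPKM in vehicle, 1.95 and 1.82 in dox and 0.374 to 0.507 in wild type. Dox lay between vehicle and wild type without overlap, and Nlrc5 fell by 0.76 (SE 0.109, limma adjusted p = 0.00453). It was thus lower in the same libraries in which H2-K1, H2-D1 and B2m were higher.

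The other genes of the pathway were counted from lists chosen by name with earlier results of these data known. Of all tested genes, 17.1% rose and 14.8% fell (25.6% and 26.7% with the clone number as a block), to be read beside these counts. Among 15 tested class I heavy chains and relatives, 4 rose, 1 fell and 10 did not pass (limma, adjusted p under 0.05), with a median of 0.19. H2-Q7 rose by 1.14, from 6.94 to 16.5 FPKM, H2-T23, the ligand of an inhibitory receptor of natural killer cells, by 1.06, from 21.7 to 46.2, and Fcgrt, the neonatal Fc receptor, by 1.02. H2-T23 shares 50-base stretches with H2-K1, and H2-Q7 with H2-D1, so the split of their fragments is uncertain too. Hfe, the gene of iron overload, rose by 0.62 and H2-T24 fell by 0.76, from 4.33 to 2.15 FPKM. H2-T22, at 35.2 and 35.4 FPKM, and H2-Q4, at 58.3 and 64.8, did not pass (limma adjusted p = 0.940 and 0.424); both were picked with their values known. H2-Q4 had a limma adjusted p of 0.0423 without dox clone 2. The 8 others of the list were under the filter, of which H2-M9 and H2-M10.1 were at 0 in all libraries.

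Of 11 genes of peptide trimming and loading, 2 rose, 1 fell and 8 did not pass, and the median was -0.11. Tapbpl, the tapasin relative TAPBPR, fell by 0.58, from 7.17 to 4.46 FPKM. Pdia3, the disulfide isomerase of the loading complex, rose by 0.31, and Uggt1, which checks the folding of glycoproteins, by 0.33; neither passed without vehicle clone 1 or without vehicle clone 2, only Uggt1 passed without dox clone 1, and only Pdia3 without dox clone 2. Without dox clone 1, or with the clone block, 2 genes of this list fell. Of 9 genes of the proteasome activators and assembly, 4 fell, with a median of -0.19: Psme2 by 0.54 and Psme1 by 0.39, the subunits of the interferon-inducible PA28 cap, and Psme4 by 0.43 and Psme3 by 0.29. Of 14 constitutive core genes, 2 fell (Psma5 by 0.34 and Psmb4 by 0.22) and 12 did not pass, with a median of -0.19. That count was 0 without dox clone 2, without vehicle clone 1 or without vehicle clone 2, and 11 with the clone number as a block.

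Of 29 tested regulators of class I transcription, 4 rose (7 with the clone block) and 9 fell, with a median of 0.00. Ifnb1, which encodes interferon beta, fell by 2.47, from 5.34 to 0.138 FPKM. It passed the filter only through its vehicle values, which favours a fall. Stat2, a transducer of the interferon signal, fell by 1.16, Irf1, a direct activator of class I promoters, by 1.11, and Socs1, a feedback inhibitor, by 1.54. Ifnar2, a chain of the interferon receptor, rose by 0.93. Of 28 interferon response genes, 27 fell and 1 did not pass, with a median of -1.21, Cmpk2 falling by 3.27 and Ifit2 by 3.24. Rfx5, a subunit of the factor that binds X boxes, did not pass (0.20, limma adjusted p = 0.165) and was chosen after its values were seen.

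For scale, 36 other genes of the MHC locus on chromosome 17 were tested, where H2-K1, H2-D1, Tap1, Tap2, Tapbp, Psmb8 and Psmb9 also lie. Of these, 6 rose and 5 fell, with a median of -0.02. The counts were 1 and 1 without dox clone 2 or without vehicle clone 1, 4 and 3 without vehicle clone 2, and 10 and 11 with the clone block. Of 6 tested class II genes, 3 rose and 3 did not pass, with a median of 0.40, and 5 more of the list were under the filter. Those that rose were Cd74, the invariant chain, from 1.65 to 5.64 FPKM, H2-Ab1 from 0.827 to 2.47, and Ctss, a protease, from 47.6 to 64.3. H2-Ab1 was under 1 FPKM in both vehicle libraries (0.867 and 0.787) and passed the filter only through dox, which favours a rise. Class II molecules are typical of professional antigen-presenting cells. Macrophage markers rose in 7 of 12 cases (0 fell and 5 did not pass), with sums of 422 and 441 FPKM in vehicle and 546 and 665 in dox. In wild type those sums were 190 to 252 FPKM, with H2-Ab1 at 2.69 to 3.54, Cd74 at 0.373 to 0.711 and Ctss at 16.4 to 23.1 FPKM. The part of such cells in the class II levels was not tested. The summed level of 9 markers of dendritic, B and T cells was 3.21 to 4.92 FPKM over the 8 libraries, and the 2 that could be tested, Zbtb46 and Cd3e, differed by 0.10 and -0.08 (limma adjusted p = 0.617 and 0.643).

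Between the lines, class I genes were lower in wild type. All 4 wild-type libraries were below both vehicle libraries for 10 of 10 genes, where 38.9% of all genes with a mean of 1 FPKM or more showed this order. They were below both dox libraries for 9 of 10, the exception being Psmb10, where the share of all genes was 38.7%. The ratio of the vehicle mean to the wild-type median was 9.95 for Tapbp, 8.97 for Psmb9, 8.44 for Nlrc5, 8.15 for Tap1, 7.01 for Tap2 and 5.93 for Psmb8. It was smaller for B2m at 4.12, H2-D1 at 3.23, H2-K1 at 2.87 and Psmb10 at 1.97. For dox over wild type it was 10.0 for B2m, 7.68 for Tapbp, 6.30 for H2-K1, 6.09 for H2-D1, 5.86 for Tap1, 5.76 for Psmb9, 5.56 for Psmb8, 4.64 for Tap2, 4.09 for Nlrc5 and 0.773 for Psmb10. Apart from B2m and Psmb10, the 2 kinds of genes were mixed in this order. Line, genotype, transfection and fibroblast marker levels differ between these groups together and cannot be told apart, and no test was made. Feeder content itself was not measured. Collection also differed, at 1 week after transfection in wild type and 2 weeks after withdrawal in dox.

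Within groups the order of levels was stable at the top. In vehicle, B2m was followed by H2-K1 and H2-D1, whose ranges over the 2 clones overlapped, then Tapbp and Psmb10. Psmb8, Tap1 and Psmb9 overlapped next, and Tap2 and Nlrc5 were lowest. H2-K1 was above H2-D1 within each of the 8 libraries, by a ratio of 1.07 to 1.30. In dox, the ranges of Psmb10 and Psmb8 overlapped. In wild type, Psmb10 stood above Tapbp in every library.

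Genes whose profile was most like the mean of the 10 standardised class I genes over the 8 libraries were Slfn2 (Pearson r = 0.9995), Xaf1 (0.998), Ppap2a, Mnda, Triml2 and Serpinb9, of 10998 ranked, and the lowest were Inpp5f (-0.998), Bcl9 and Arrb1. The libraries come from 2 lines, and libraries of a line share their cells and treatment type, so r is a description and carries no p. Among the class I genes, H2-K1, H2-D1 and B2m correlated with each other at 0.994 to 0.997, Tap1, Tap2 and Tapbp with each other at 0.989 to 0.997, and H2-K1 with Tap1 at 0.88. Psmb10 had the lowest values, from -0.13 with H2-K1 to 0.52 with Nlrc5.

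The siRNA comparisons had 1 library each and share the siControl library, so no difference here has a replicate check or a test. Differences were small. Of the 9 class I genes with a mean of 1 FPKM or more, Nlrc5 being under it, none was 1.5-fold lower or higher with siDnmt3a, beside 0.586% of all genes lower and 0.204% higher. With siDnmt3b, Psmb8 was 1.5-fold lower and none was higher, beside 0.546% and 0.119% of all genes. With the double siRNA, Psmb10 was just past 1.5-fold higher and none was lower, beside 1.18% lower and 0.81% higher of all genes. At any size, 8, 8 and 7 of 9 were below siControl in these 3 comparisons, beside 51.7%, 51.3% and 48.4% of all genes, with medians of -0.26, -0.26 and -0.05. The last was -0.20 with GC content and transcript length taken into account and -0.24 with libraries scaled to an equal sum. That scaling moved the median of all genes to -0.17, so the class I median relative to it was -0.07.

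B2m was the lowest with the double siRNA, at 99.7 FPKM against 148 in siControl, a difference of -0.57, and it differed by -0.41 with siDnmt3a and -0.33 with siDnmt3b. H2-K1 differed by -0.08, -0.19 and -0.05 and H2-D1 by -0.18, -0.29 and -0.06 in the order siDnmt3a, siDnmt3b and double. Tap1 differed by -0.26, -0.36 and -0.30. Psmb8 went from 5.79 FPKM in siControl to 3.36 with siDnmt3b, a difference of -0.64, and to 5.64 with the double siRNA. Psmb10 went from 30.2 FPKM in siControl to 46.1 with the double siRNA, a difference of 0.59. Psmb5 and Psmb7 were also higher there, from 280.8 to 405.7 FPKM and from 321.8 to 375.0 FPKM, and the 14 constitutive core genes had a median of 0.23. In that library differences followed GC content (Spearman rho 0.483 over 10641 genes) and transcript length (-0.490), and with both taken into account Psmb10 differed by 0.31, B2m by -0.46, H2-K1 by -0.21, H2-D1 by -0.19, Psmb8 by -0.20, Tapbp by -0.10 and Psmb9 by 0.09. Fibroblast markers were below siControl in 19 of 19, 18 of 18 and 19 of 19 tested, with medians of -0.59, -0.70 and -0.75, and their part in the class I differences was not tested.

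**Figure D4:**
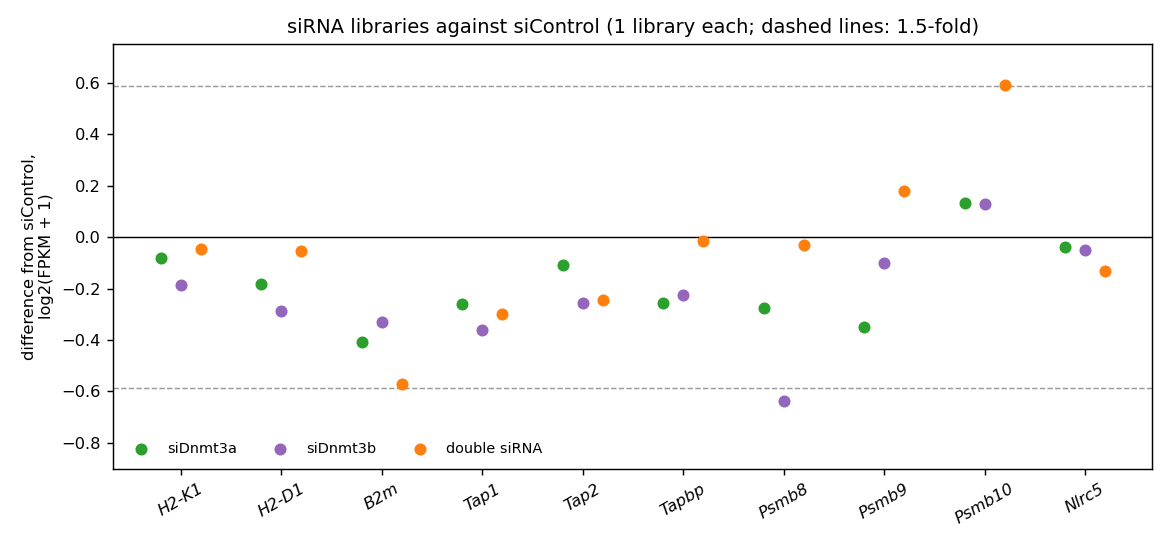
Difference from siControl on the log2(FPKM + 1) scale for the 10 class I genes with siDnmt3a, with siDnmt3b and with both siRNAs (1 library each, dashed lines at 1.5-fold). Psmb8 with siDnmt3b and Psmb10 with the double siRNA lie past the lines, the latter barely, and B2m with both siRNAs lies just inside.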

How the data were processed

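The authors deposited FPKM, with gene symbols in lines and libraries in columns. Per the submitters' processing notes, reads were handled with TopHat2 2.0.10, Cufflinks 2.2.1 with Cuffnorm, Bowtie 1.0.0, SAMtools 0.1.19 and FastQC, and the builds named are GRCm38 and mm10. Sources used here name neither the library scaling, the annotation release nor the strand setting. Since FPKM are relative to the library, more of some abundant genes means lower values elsewhere.

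For dox against vehicle (n = 2 each), limma 3.58.1 was run in R 4.3.3 (eBayes with a trend) on log2(FPKM + 1), two-sided, over 11927 genes with a mean of 1 FPKM or more, calling adjusted p (Benjamini-Hochberg) under 0.05. This scale understates the change of low genes. The fit was tested on simulated data. Groups came from the labels. The class I genes and the lists (13 lists of 235 entries, 234 matched, 5 through a synonym) were chosen with earlier results of these data known. Genes named are all 10 class I genes, up to 4 of each list with the largest difference (6 where past the threshold), Psmb5 to Psmb7, and the 6 most and 3 least alike profiles. siRNA libraries were compared by differences without a test, counted at 1.5-fold.

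The fit used no clone block, and the clone number entered as a block in an alternative, since the labels number the clones but do not state that equal numbers are the same clone. Clone 2 minus clone 1 in dox correlated with the same in vehicle (r = 0.441, taken over 11927 genes that are not independent). Gene positions came from GENCODE M21 on GRCm38 and promoter windows from RefSeq on GRCm38.p6. Alternatives were the pseudocount, filter, scaling, variance model, clone block and leaving out each library.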

Additional observations from a re-analysis of the deposited data

How the results depend on the processing

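Of 119 values of the class I genes under alternatives, 105 kept their direction and side of the threshold, 13 lost the call and 1 reversed. H2-K1, H2-D1 and B2m rose under all 12 alternatives. The count of class I genes that fell, 6, was 2 with no filter on low values and 2 to 6 with a library left out. All genes that fell, 1767, became 947 with no filter, 3190 with the replicate block and 527 to 2014 with a library left out. All genes that rose, 2035, became 1289 at a mean of 5 FPKM or more, 3052 with the replicate block and 1057 to 2130 with a library left out. The replicate block moved no call of a class I gene. With no filter, 18683 genes were tested and the limma adjusted p was 0.0720 for Tap1, 0.0735 for Tap2, 0.0710 for Tapbp and 0.130 for Psmb9. With a library left out, 6 of the differences given in the text changed sign, none of them past the threshold in the full set. Psmb8 ranged from -0.193 to 0.0213 (without vehicle clone 2), H2-Eb1 from -0.0534 (without dox clone 2) to 0.815, Zbtb46 from -0.0145 (without dox clone 2; -0.0132 without vehicle clone 1) to 0.220, Cd3e from -0.168 to 0.00722 (without dox clone 1), H2-T22 from -0.0708 (without vehicle clone 1) to 0.0896, and H2-Q4 from -0.0500 (without dox clone 1) to 0.327. The cause was not tested.

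The median siRNA difference of the class I genes in the double siRNA library, -0.05, was -0.24 when libraries were scaled to an equal sum, which moved the median of all genes to -0.17, and -0.20 adjusted for GC content and length, an alternative chosen after seeing the data. With 2 libraries per group and unknown fragment depth, small differences and low genes such as Nlrc5 in wild type are not resolved.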
